A study of Sus scrofa with 24 samples.

Results

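Antigen presentation genes were described in pig hearts with an old infarct: B2M, PSMB9, TAP1, SLA-1, SLA-2, SLA-3, SLA-DRA and SLA-DOB. A probe was taken as one of theirs when the array files named it by one of these symbols, or when an accession listed for it belongs to one of these genes in RefSeq. This gave 30 of the 43603 probes on the array for the 8 genes. The same 30 are among the 34360 probes that were well above background on at least 3 of the 24 arrays, and 29 of them were well above background on all 24. The exception was 1 of the 3 SLA-DOB probes, which was well above background on 10 arrays.

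The samples came from 9 domestic pigs in which a myocardial infarct had been made by the closed-chest reperfusion method. All of them received aspirin (250 mg) and clopidogrel (300 mg) before the infarct, then 100 mg aspirin and 75 mg clopidogrel daily. About 1 month after the infarct, they were given either medium alone or the secretome, the secreted products of peripheral mononuclear cells made apoptotic, by percutaneous injection into the heart muscle. Tissue was taken 1 month later from the infarct core, from the border zone, where the injections were made, and from the normal region. The arrays are 3 infarct, 3 border and 2 normal with medium (pigs 10, 18 and 40), and 6, 6 and 4 with secretome (pigs 11 to 16). Pigs 12, 13 and 40 have no normal array. The labels say that 8 pigs were randomized to each arm, and the pigs hybridised are fewer. They mark pigs 10, 18 and 40 as not treated. That these pigs are the medium arm is an assumption made here, and all values given for medium rest on it. On that reading no arm without injection was measured. The pig is the replicate, and the regions of a pig are not independent of each other.

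Class I molecules sit on almost every nucleated cell and show short peptides from inside the cell to cytotoxic T cells. A heavy chain, in pigs encoded mainly by SLA-1, SLA-2 and SLA-3, binds the light chain beta-2-microglobulin (B2M), after the immunoproteasome (PSMB9 is one of its catalytic subunits) has cut the peptides and the TAP transporter (TAP1 is one of its subunits) has carried them into the endoplasmic reticulum. Class II molecules, to which the alpha chain SLA-DRA belongs, show peptides from outside the cell to helper T cells and are made mainly by macrophages, dendritic cells and B cells. SLA-DOB is the beta chain of a class II-like protein that modulates peptide loading, best known from B cells. Interferon gamma raises most of these genes, and heart muscle cells themselves normally make little class II.

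In the RefSeq annotation of the assembly Sscrofa11.1, B2M lies on chromosome 1 and the other genes on chromosome 7. SLA-1, SLA-2 and SLA-3 lie close to each other there, with 3 genes between the first pair and 1 between the second pair. SLA-DRA follows after 110 genes. SLA-DOB comes 14 genes later, and after it TAP2, PSMB8, TAP1 and PSMB9 lie side by side.

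The class I heavy chains are so alike that single probes report several of them, and 5 of the 30 probes are listed under more than 1 of these genes. SLA-2 has no probe of its own name, and each of its 4 probes is also listed under SLA-1 or SLA-3. The following pair, both 60 bases long, shows how close they are. The array files name the first SLA-1 and the second SLA-3, and each is also listed under SLA-2 and the unnamed locus LOC100513601. Capitals mark the bases at which they differ.
A_72_P440391: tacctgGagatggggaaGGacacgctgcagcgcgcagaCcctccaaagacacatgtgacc
A_72_P440386: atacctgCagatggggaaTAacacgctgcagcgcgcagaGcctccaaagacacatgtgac

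The second sequence starts 1 base further upstream. Of the 59 bases that both cover, 55 match, and the differences are G7C, G18T, G19A and C39G, counted from the first base of A_72_P440391. A transcript of one gene could bind either probe, so a value below belongs to a probe first and to a gene only as far as the probe separates it.

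The next 2 sequences are the probe from which SLA-2 is read here, which is also listed under SLA-1 and LOC100513601, and a probe listed under SLA-3 alone. They show that other stretches of these transcripts were also measured.
A_72_P262732: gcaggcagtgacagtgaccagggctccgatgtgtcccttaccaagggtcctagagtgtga
A_72_P517623: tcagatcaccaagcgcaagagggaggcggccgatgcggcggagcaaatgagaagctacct

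Probes of the other genes are listed under 1 gene each. The sequences below, 1 per gene, show the targets behind the B2M, PSMB9, TAP1, SLA-DRA and SLA-DOB values.
A_72_P709927, B2M: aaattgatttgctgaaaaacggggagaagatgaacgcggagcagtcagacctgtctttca
A_72_P440071, PSMB9: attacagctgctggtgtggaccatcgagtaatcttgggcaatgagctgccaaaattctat
A_72_P223837, TAP1: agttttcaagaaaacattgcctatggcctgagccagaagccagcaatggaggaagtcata
A_72_P561324, SLA-DRA: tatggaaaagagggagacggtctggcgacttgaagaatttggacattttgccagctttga
A_72_P634856, SLA-DOB: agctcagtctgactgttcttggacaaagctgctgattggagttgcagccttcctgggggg

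The number of probes well above background ranged from 26822 to 32978 per array. Levels are given as log2 of the processed signal relative to the 75th percentile of that array, so a level of 0 equals that percentile and a difference of 1 is a doubling. Each gene was read from its brightest probe, with the other probes of that gene beside it, and levels are compared between samples for 1 probe, never between probes. Differences between regions give both arms equal weight and were tested with limma, with the pig as a block. A difference was called at a Benjamini-Hochberg adjusted p under 0.05 over all 34360 probes. The arrays were scanned in 2 series, with pigs 12, 13, 16, 18 and 40 in series 1 and pigs 10, 11, 14 and 15 in series 2. Both arms are in both series. As a check of the labelled tissue, 9 cardiomyocyte markers were measured and all 9 were well above background on all 24 arrays. All 9 were lower in the infarct core than in the normal region, with a median log2 difference of -2.18.

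Of the 8 genes, 4 were higher in the infarct core than in the normal region, SLA-DRA, SLA-DOB, PSMB9 and B2M, and none was lower. Of all probes tested, 53% were called in this comparison, 25.4% higher and 27.6% lower. Among the 30 probes 17 were higher and 0 lower, the SLA-DOB probe with 10 arrays above background included. All 30 fitted differences were positive, with a median log2 difference of 0.47 against -0.05 over all probes. The sign was not shared by all pigs. The TAP1 probe A_72_P172206 and the SLA-3 probes A_72_P515992, A_72_P517623 and A_72_P609764 were each higher in 3 of 6 pigs. For some class I probes the unweighted mean was lower in the core than in the normal region, opposite to the fitted sign. These were A_72_P262732 (7.22 and 7.27), A_72_P515992 (5.61 and 5.62) and A_72_P625308 (5.06 and 5.10). Between the border zone and the normal region none of the 8 genes and none of the 30 probes passed limma's test, where 0.466% of all probes did (0.457% higher and 0.00873% lower). At an unadjusted p under 0.05 there 2 genes, B2M and SLA-DOB, and 2 of the 30 probes passed, where 14.3% of all probes did. In the infarct core against the border zone 4 genes were higher, PSMB9, TAP1, SLA-DRA and SLA-3, the last read from a probe it shares with SLA-1, with 16 of 30 probes higher and 0 lower, where 46.7% of all probes were called, 23% higher and 23.6% lower. These 16 probes include the same SLA-DOB probe with 10 arrays above background. The probes of 1 gene share their transcript and are not independent of each other.

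**Figure D1:**
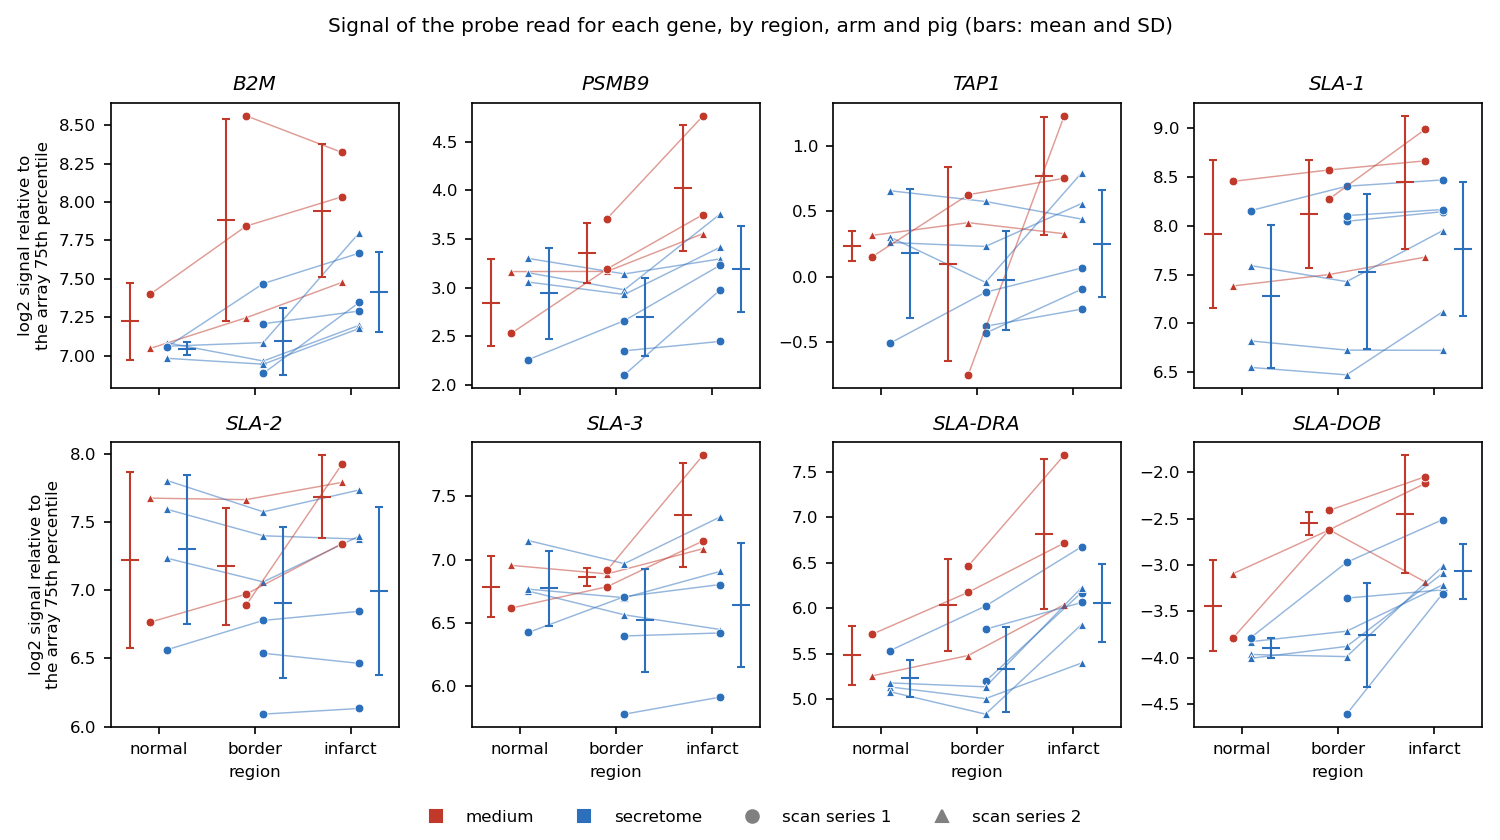
Level of each of the 8 genes, from its brightest probe, in every array, as log2 relative to the 75th percentile of the array. Red points are medium pigs and blue points secretome pigs, circles are scan series 1 and triangles series 2, thin lines join the regions of a pig, and bars give each group's mean and SD. SLA-DRA was higher in the infarct core than in the border zone in 9 of 9 pigs, and SLA-1 and SLA-2 differed more between scan series than between regions.

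SLA-DRA, the class II alpha chain, was higher in the infarct core than in both other regions. With medium its level was 6.04, 6.72 and 7.68 in the infarct core of pigs 10, 18 and 40, and with secretome it ranged from 5.40 to 6.67 around a median of 6.12 over 6 pigs. The medium pigs' border zones had 5.48, 6.17 and 6.46, and those of the secretome pigs 4.83 to 6.02 with a median of 5.16. The core was higher than the border zone in 9 of 9 pigs.

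SLA-DRA in the normal region stood at 5.25 and 5.71 in medium pigs 10 and 18, and at 5.13, 5.18, 5.08 and 5.53 in secretome pigs 11, 14, 15 and 16. The core was higher than the normal region in 6 of 6 pigs, with a log2 difference of 0.94 (SE 0.17, limma adjusted p = 9.18e-05), which is 1.92-fold. The difference from the border zone was 0.75 (SE 0.15, limma adjusted p = 0.000297). All 7 SLA-DRA probes passed in both comparisons, with differences of 0.76 to 0.94 and of 0.69 to 0.78. The order was infarct core, border zone, normal region, and the last 2 did not differ beyond their error, by 0.19 (SE 0.17, limma adjusted p = 0.635).

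SLA-DOB, the modulator of class II loading, was a dim gene throughout. In the infarct core it read -3.18, -2.12 and -2.05 in medium pigs 10, 18 and 40 and -3.31 to -2.51 in the secretome pigs, with a median of -3.15. Its normal region read -3.09 and -3.78 with medium, and -3.96, -4.00, -3.82 and -3.78 with secretome. The core was higher in 5 of 6 pigs, pig 10 being the exception.

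The infarct difference of SLA-DOB was 0.90 (SE 0.19, limma adjusted p = 0.000398) and its second probe above background on all arrays gave 0.39, also called. The third probe, A_72_P440006, was also called. It was well above background on 10 of 24 arrays and on none of the 4 normal arrays with secretome, so its difference is only a bound. The size of that difference is not used here, but the probe is included in the probe counts. It was the only SLA-DOB probe called against the border zone. The brightest probe, from which SLA-DOB is read, had 0.81 with quantile normalization and 0.15 in the authors' table, and was called in both. The border zone levels of this brightest probe were -2.62, -2.62 and -2.41 with medium and -4.60 to -2.97 with secretome. This spread spans nearly the whole range of the gene. The core exceeded the border zone by 0.39 (SE 0.16, limma adjusted p = 0.0515), and the border zone exceeded the normal region by 0.51 (SE 0.19, limma adjusted p = 0.218). Neither passed, so the place of the border zone in the order of SLA-DOB levels is not settled by these samples.

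PSMB9, the immunoproteasome subunit, rose in the infarct core against both other regions. Its core levels were 3.56, 3.75 and 4.77 in medium pigs 10, 18 and 40, and 2.45 to 3.76 with a median of 3.26 in the secretome pigs. Its border zone levels were 3.17, 3.19 and 3.71 with medium, and 2.10 to 3.14 with a median of 2.80 with secretome. The core was above the border zone in 9 of 9 pigs.

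PSMB9 in the normal region read 3.16 and 2.53 with medium and 3.30, 3.15, 3.06 and 2.26 with secretome, and the core was higher in 5 of 6 pigs. The difference from the normal region was 0.70 (SE 0.17, limma adjusted p = 0.00185) and from the border zone 0.58 (SE 0.15, limma adjusted p = 0.00308). Both probes passed in both comparisons, with 0.64 and 0.70 against the normal region. The border zone and the normal region differed by 0.12 (SE 0.17, limma adjusted p = 0.799). Without medium pig 18, the call against the normal region was lost for PSMB9 (0.55, limma adjusted p = 0.0501).

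TAP1, the peptide transporter subunit, was less clear. It read 0.33, 0.75 and 1.23 in the infarct core of medium pigs 10, 18 and 40, and -0.25 to 0.79 around a median of 0.25 in the secretome pigs. Its border zone values were 0.41, 0.63 and -0.75 in the same medium pigs and -0.43 to 0.57 with secretome. Pig 40 thus had the lowest TAP1 level of all border samples and the highest of all core samples.

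The TAP1 level in the core exceeded that in the border zone by 0.48 (SE 0.17, limma adjusted p = 0.0303), in 7 of 9 pigs, but without pig 40 by 0.15 (limma adjusted p = 0.426) and without pig 14 by 0.42 (limma adjusted p = 0.0771). With the slide as a covariate it was 0.28 (limma adjusted p = 0.108). The slide is inferred here and below: arrays with the same scan time in the file headers were taken to share a slide. Against the normal region, where TAP1 read 0.32 and 0.15 with medium and 0.66, 0.31, 0.26 and -0.51 with secretome, the difference was 0.41 (SE 0.20, limma adjusted p = 0.0944) and was not called. Over 24 alternatives the TAP1 difference from the normal region ranged from 0.10 to 0.70 and was called in 1. The second TAP1 probe passed in neither comparison, with 0.39 and 0.41.

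B2M, the light chain of every class I molecule, was higher in the infarct core than in the normal region. Its core levels were 7.48, 8.03 and 8.32 in medium pigs 10, 18 and 40 and 7.18 to 7.80 with a median of 7.32 in the secretome pigs. Its normal region levels were 7.05 and 7.40 with medium and 7.08, 7.06, 6.98 and 7.06 with secretome. The core was above the normal region in 6 of 6 pigs.

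The B2M difference was 0.46 (SE 0.13, limma adjusted p = 0.00440), which is 1.38-fold, and all 5 B2M probes were called, with 0.46 to 0.63. It lost its call without medium pig 18 (0.43, limma adjusted p = 0.0517). Border zone levels were 7.25, 7.84 and 8.56 with medium and 6.88 to 7.47 with secretome. The difference of the border zone from the normal region was not called (0.27, SE 0.13, limma adjusted p = 0.337). Its unadjusted p was under 0.05. The core exceeded the border zone in 8 of 9 pigs by 0.19 (SE 0.11, limma adjusted p = 0.164) in the brightest probe, which was not called, while 3 of the 5 probes were called, over a range of 0.19 to 0.37.

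The class I heavy chains had small infarct differences that did not pass against the normal region in the fit reported here. With pig as a fixed block in place of a random one, SLA-1 passed against the normal region (0.30, limma adjusted p = 0.0491), and SLA-1 (0.28, limma adjusted p = 0.0362) and SLA-2 (0.30, limma adjusted p = 0.0308) passed against the border zone. SLA-1 read 7.68, 8.66 and 8.99 in the core of medium pigs 10, 18 and 40, and 6.73 to 8.47 with secretome. Its normal region levels were 7.38 and 8.45 with medium and 6.82, 7.59, 6.55 and 8.15 with secretome. Its infarct difference was 0.36 (SE 0.21, limma adjusted p = 0.152), positive in 5 of 6 pigs. The secretome pigs' values differed more from each other than the 2 regions did.

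SLA-2, read from a probe it shares with SLA-1, stood at 7.79, 7.34 and 7.92 in the core of medium pigs 10, 18 and 40 and at 6.13 to 7.73 with secretome. Its normal region levels were 7.68 and 6.77 with medium and 7.59, 7.80, 7.23 and 6.56 with secretome. The infarct difference was 0.20 (SE 0.18, limma adjusted p = 0.362), positive in 4 of 6 pigs. The unweighted means were 7.22 in the core and 7.27 in the normal region. Their order is thus opposite to the sign of the fitted difference, and no direction is read from it.

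SLA-3 read 7.09, 7.15 and 7.83 in the core of medium pigs 10, 18 and 40 and 5.91 to 7.34 with secretome. Its border zone levels were 6.89, 6.79 and 6.92 with medium and 5.78 to 6.97 with secretome. The core exceeded the border zone by 0.31 (SE 0.12, limma adjusted p = 0.0478), in 8 of 9 pigs. The probe behind this value, A_72_P649741, is also listed under SLA-1 and is the brightest probe of SLA-3 but not of SLA-1. This call lies at the threshold: it was lost on leaving out any of pigs 10, 11, 13, 14, 15, 16, 18 or 40, with the value 0.20 without pig 40, and 2 of the 8 SLA-3 probes passed. Both of these are shared with another class I gene, A_72_P649741 with SLA-1 and A_72_P440386 with SLA-2, and none of the 5 probes listed under SLA-3 alone passed. Read from the brightest of those 5, SLA-3 had 0.33 (limma adjusted p = 0.151), so the call cannot be assigned to SLA-3 itself. Against the normal region the difference was 0.25 (SE 0.14, limma adjusted p = 0.148), and none of its 8 probes passed, with a range of 0.10 to 0.35.

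These class I results depend on how arrays are scaled. With quantile normalization the infarct difference against the normal region was 1.20 for B2M, 1.15 for SLA-1, 0.89 for SLA-2 and 0.93 for SLA-3, each past the threshold, and 1.52 for SLA-DRA. In the authors' own normalized values it was 1.14 for B2M, 1.11 for SLA-1, 0.76 for SLA-2 and 0.87 for SLA-3. Against the border zone the quantile values were 0.86, 0.96, 0.88 and 0.87, all called. Positive differences were thus found in both settings, but their size was more than 2 times as large with quantile normalization for these 4 genes, and SLA-1, SLA-2 and SLA-3 were called against the normal region in one setting and not in the other.

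**Figure D2:**
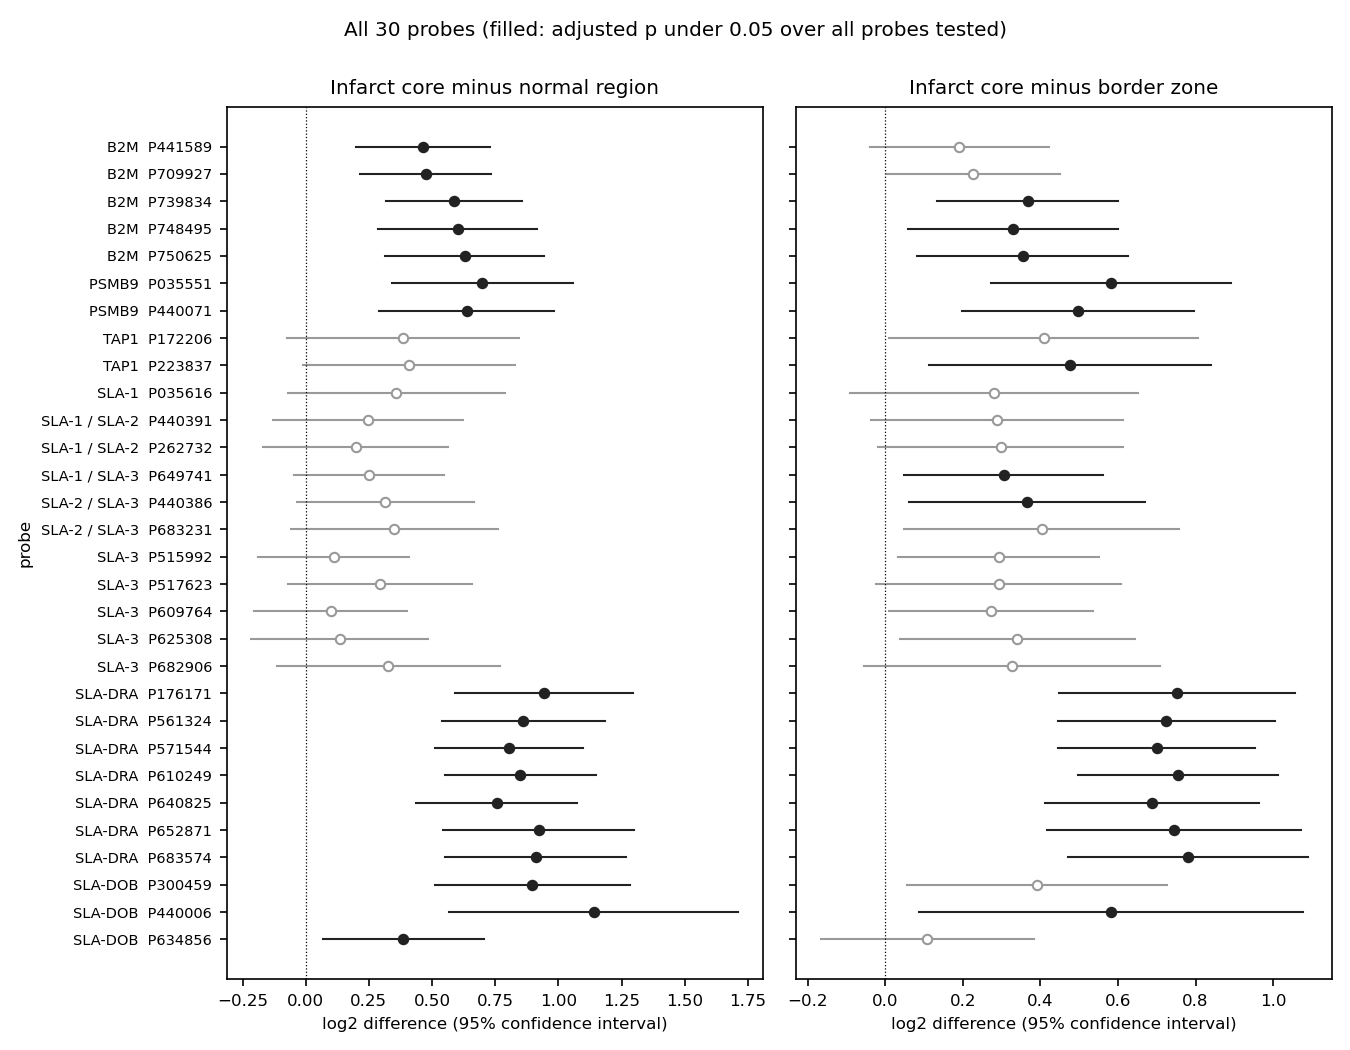
Log2 difference of each of the 30 probes between the infarct core and the normal region, and between the infarct core and the border zone, with 95% confidence intervals. Filled points passed at a limma adjusted p under 0.05, which 17 and 16 probes did. All 30 fitted values lie above 0 in both comparisons, and the 7 SLA-DRA probes lie between 0.76 and 0.94 against the normal region. The third SLA-DOB probe, A_72_P440006, was well above background on 10 of 24 arrays.

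Other genes of the same pathways did not move together. Of 8 measured genes that supply and load class I peptides (13 in the list), 1 rose and 1 fell in the infarct core against the normal region, and the median difference was -0.10. CALR, a chaperone of class I assembly, rose by 0.50 (SE 0.16, limma adjusted p = 0.0142), and PSME1, a proteasome activator subunit, fell by 0.32 (SE 0.13, limma adjusted p = 0.0424), but by only 0.04 with quantile normalization. NLRC5, a transcriptional activator of class I genes, had a difference of -0.34 (limma adjusted p = 0.192), and PSMB8, another immunoproteasome subunit, of 0.34 (limma adjusted p = 0.269). The median of this list was 0.18 with quantile normalization, so its sign depends on the scaling. Against the border zone these 4 genes had differences of 0.49, -0.30, -0.37 and 0.35.

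The constitutive subunits of the proteasome core, the part to which PSMB9 also belongs, went the other way. Of 10 measured constitutive core subunits (14 in the list), 10 fell in the infarct core against the normal region, with a median of -0.77, and 10 fell against the border zone, with a median of -0.65. PSMB4 fell by 0.85 (SE 0.11, limma adjusted p = 4.86e-06), PSMA4 by 0.76 (limma adjusted p = 5.43e-06), PSMB7 by 1.06 (limma adjusted p = 2.62e-05) and PSMB3 by 0.63 (limma adjusted p = 5.55e-05). With quantile normalization 7 of the 10 fell and none rose, with a median of -0.59. Relative to each array's 75th percentile, the immunoproteasome subunit PSMB9 was thus higher in the core while the constitutive core subunits were lower.

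Most measured class II genes other than the members rose. Of 11 measured genes of class II and its loading (25 in the list), 10 rose and none fell, with a median of 0.94 against the normal region and 0.80 against the border zone. CTSH, a lysosomal protease, rose by 2.96 (SE 0.25, limma adjusted p = 8.23e-08). The class II chains SLA-DQA1 and SLA-DQB1 rose by 1.24 (limma adjusted p = 5.83e-06) and 1.07 (limma adjusted p = 1.70e-05). SLA-DMB, part of the protein that exchanges class II peptides, rose by 1.00 (limma adjusted p = 2.38e-05).

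The gene of this list that did not rise was RFX5, a transcription factor of class II promoters, at -0.23 (limma adjusted p = 0.106). It fell with quantile normalization, with normexp and quantile, and in the authors' values. Against the border zone CTSH, SLA-DQA1, SLA-DQB1 and SLA-DMB had differences of 1.92, 0.90, 0.81 and 0.77. Between border zone and normal region they had 1.04, 0.34, 0.26 and 0.22, none of them called.

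Of 7 other class I and class I-like genes (13 in the list), 2 rose in the core against the normal region and none fell. Their median was 0.21. Of all named genes 27.4% were higher and 31% lower there, so 2 of 7 is near the general share of higher genes. SLA-8 and SLA-6, both non-classical class I genes, rose by 0.76 (SE 0.17, limma adjusted p = 0.000621) and by 0.75 (SE 0.20, limma adjusted p = 0.00293). FCGRT, the heavy chain of an antibody receptor that also binds B2M, had 0.21 (limma adjusted p = 0.0860), and MIC-2, a stress-related class I-like gene, had 0.31 (limma adjusted p = 0.201). The 2 that rose had larger differences than SLA-1, SLA-2 and SLA-3. They were singled out because they passed, and the difference between genes was not tested.

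Of 16 measured genes of interferon gamma signalling (21 in the list), 10 rose in the core against the normal region and none fell, with a median of 0.58. IRF1, a transcription factor induced by interferon gamma, rose by 0.83 (limma adjusted p = 0.000161), and SOCS3, a feedback inhibitor of cytokine signals, by 1.22 (limma adjusted p = 0.000174). The receptor subunit IFNGR2 rose by 0.86 (limma adjusted p = 0.000206) and the kinase JAK2 by 1.27 (limma adjusted p = 0.000296). For IFNG itself the difference was 0.13 (limma adjusted p = 0.638). Against the border zone 8 of the 16 rose, with values of 0.76 for IRF1, 1.05 for SOCS3 and 0.55 for IFNGR2, while JAK2 had 0.47 (limma adjusted p = 0.0900). No gene of these 5 lists was called in the border zone against the normal region. Over all named genes 27.4% were higher and 31% lower in the core than in the normal region, with a median of -0.08.

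**Figure D3:**
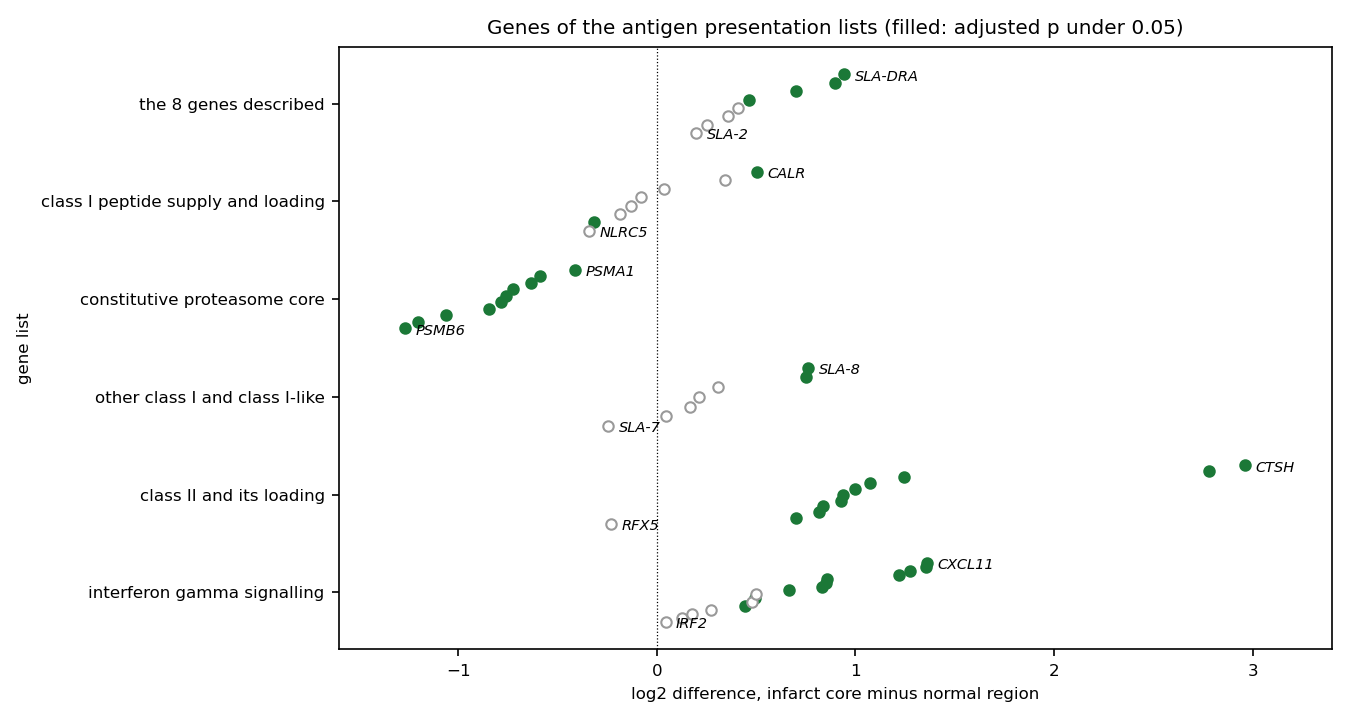
Log2 difference between the infarct core and the normal region for each measured gene of the 5 pathway lists and for the 8 members, filled where the limma adjusted p is under 0.05. The lowest and highest gene of each list are named. All 10 constitutive proteasome subunits lie below 0, 10 of 11 class II genes lie above 0, and the class I supply genes lie on both sides.

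Markers of several immune cell types were also higher in the infarct core. Against the normal region, the core had 8 of 8 measured macrophage and monocyte markers higher (median 1.55), 7 of 9 T cell markers (1.17), 3 of 5 dendritic cell markers (1.24) and 3 of 5 NK and cytotoxic markers (1.10), with 1 of the last list lower. Of 3 B cell markers 1 was higher and 1 lower, and the defining B cell genes MS4A1 and CD79A were well above background on 12 and 10 of the 24 arrays. The single plasma cell marker was higher (1.70), 6 of 6 fibroblast markers were higher (3.34), and 3 of 7 endothelial markers were lower (-0.53). Beside these counts, 27.4% of all named genes were higher and 31% lower, and the lists with few markers cannot be set apart from those shares.

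The summed signal of the 8 macrophage markers, in units of the 75th percentile, ran from 173 to 280 with medium and from 71.9 to 178 with secretome in the core, and from 39.4 to 73.9 and from 44.6 to 55.0 in the normal region. Their part in the differences of the antigen presentation genes was not tested. In whole tissue, a change in the number of cells of a type and a change in RNA per cell cannot be told apart.

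For 4 of the members, the 3 genes with the highest correlation across the 24 arrays are named here. This is a description over arrays that share pigs, regions and scan series. For B2M they were the interferon-induced chemokines CXCL9 (Pearson r 0.927), CXCL10 (0.925) and CXCL11 (0.920), whose r was 0.926, 0.943 and 0.932 within scan series 1 and 0.803, 0.763 and 0.774 within series 2. For PSMB9 they were SLA-DMB (0.871), IL27 (0.866) and SLA-DMA (0.858), with IL27 at 0.952 and 0.598 within the series.

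For SLA-DRA they were PTPRC, the leukocyte surface protein CD45 (0.944), TTF2, a transcription termination factor (0.944), and CXCR4, a chemokine receptor of leukocytes (0.941). For SLA-1 they were ARHGAP25 (0.915), CXCL13 (0.900) and WFDC2 (0.899), with 0.699, 0.634 and 0.791 within series 1 and 0.905, 0.837 and 0.821 within series 2. CXCL9 and CXCL11 were also higher in the core than in the normal region, by 1.35 (limma adjusted p = 0.00417) and 1.36 (limma adjusted p = 0.00419), and CXCL10 differed by 0.48 (limma adjusted p = 0.182).

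The levels of the members correlated unevenly over all arrays and more closely within a scan series. Of the 28 pairs of genes 8 had an r under 0.2 over the 24 arrays, and 3 of them were below 0 (SLA-1 with SLA-2, TAP1 with SLA-1 and SLA-2 with SLA-DRA). Within series 1 all 28 lay between 0.45 and 0.99, and within series 2 between 0.06 and 0.92. Over the 24 arrays B2M and SLA-DRA had r 0.87, PSMB9 and SLA-DRA 0.58 and B2M and PSMB9 0.66. Within the series the last 2 pairs were at 0.95 and 0.92, and at 0.90 and 0.89. SLA-1 and SLA-2 had r -0.31 over all arrays, yet 0.94 within series 1 and 0.89 within series 2.

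Among the 6 secretome pigs the series could be compared 3 against 3. The brightest SLA-1 probe in the border zone read 8.04 to 8.40 in series 1 and 6.47 to 7.43 in series 2, a difference of 1.31, and in the core 0.99. The SLA-3 probe A_72_P682906 differed the same way, by 1.16 and 1.07. The other 9 class I heavy chain probes differed the opposite way, by -0.27 to -1.01 in the border zone and -0.30 to -1.12 in the core. The shared SLA-1 and SLA-2 probe A_72_P262732 read 6.09 to 6.78 in series 1 and 7.06 to 7.57 in series 2.

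Opposite signs occurred even between probes for nearly the same stretch. A_72_P625308 and A_72_P682906, both listed under SLA-3 alone, share 42 bases that are identical, yet A_72_P625308 was lower in series 1 by 0.73 and 0.78 on the log2 scale with no overlap. Over all probes 47.1% in the border zone and 43.8% in the core did not overlap between the series in these pigs, against 14 and 10 of the 30 member probes. Each series holds different pigs, so scan series and pig cannot be told apart here. Core and border zone were measured in all 9 pigs, so their difference compares regions of the same pigs. The normal region was measured in only 6 of them. The fitted difference from it therefore rests partly on comparisons between pigs. With the scan series as a covariate the same 4 genes were called in the core against the normal region, and SLA-3 lost its call against the border zone (0.31, limma adjusted p = 0.0947).

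**Figure D4:**
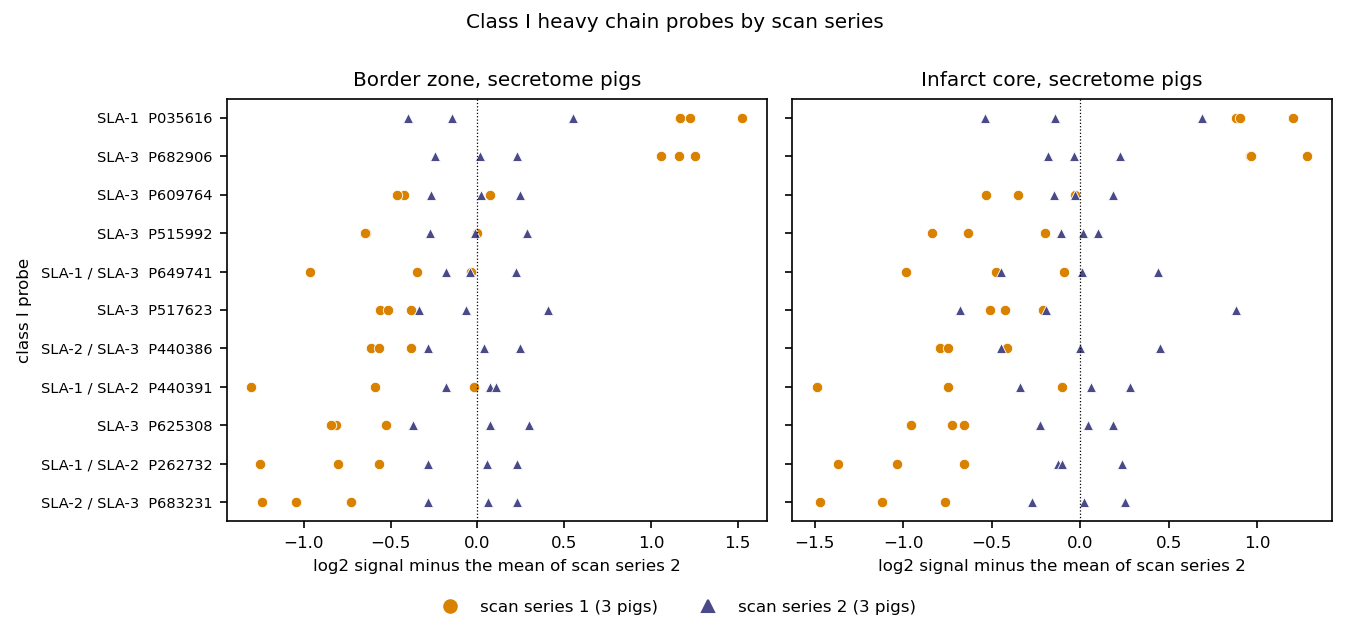
Level of the 11 class I heavy chain probes in the border zone and infarct core of the 6 secretome pigs, as log2 relative to the mean of the 3 pigs of scan series 2. Circles are pigs of series 1 and triangles pigs of series 2. The brightest SLA-1 probe and the SLA-3 probe A_72_P682906 lie above the series 2 mean in series 1, and the means of the other 9 lie below it.

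No member differed between secretome and medium in any region after adjustment, although all 8 estimates were negative in each region. In the infarct core none of the 8 genes and none of the 30 probes was called by limma, where 0.0146% of all probes were (0.0146% lower and 0% higher). At an unadjusted p under 0.05 there were 5 genes (B2M, PSMB9, SLA-2, SLA-3 and SLA-DRA) and 21 of the 30 probes, where 4.9% of all probes passed. For the border zone limma called no member and 0% of all probes, with 4 genes (B2M, PSMB9, SLA-DRA and SLA-DOB) and 16 of the 30 probes at an unadjusted p under 0.05, as had 7.2% of all probes. For the normal region limma called no member and 0% of all probes, with 0 genes and 1 of the 30 probes at an unadjusted p under 0.05, as had 1.73% of all probes. The median of the 8 genes in core, border zone and normal region was -0.69, -0.62 and -0.33, against -0.04, -0.03 and 0.03 over all probes.

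In the infarct core the difference, secretome minus medium, ran from -0.84 for PSMB9 (95% interval -1.49 to -0.19) to -0.52 for TAP1 (-1.28 to 0.25), each with a limma adjusted p of 0.974. SLA-DRA had -0.76 (-1.40 to -0.11), SLA-3 -0.72 (-1.26 to -0.18), SLA-2 -0.69 (-1.36 to -0.03), SLA-1 -0.68 (-1.46 to 0.10), SLA-DOB -0.62 (-1.32 to 0.09) and B2M -0.53 (-1.02 to -0.05). The intervals of all 8 genes include a level with medium that is double that with secretome, so these samples do not show that the arms are alike. Pig 40, a medium pig, had the highest core value of all 9 pigs in 29 of the 30 probes. Without it the median over the 8 genes was -0.41, and without medium pig 10 it was -0.92.

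In the border zone SLA-DOB had the largest difference, -1.20 (95% interval -1.91 to -0.50, limma adjusted p = 0.662). Its 3 medium values, -2.62, -2.62 and -2.41, all lay above the 6 secretome values. PSMB9 did not overlap either, at 3.17 to 3.71 against 2.10 to 3.14, with a difference of -0.66 (-1.31 to -0.01, limma adjusted p = 0.685). B2M had -0.79 (-1.28 to -0.31, limma adjusted p = 0.662) with overlapping groups, and TAP1 had -0.12 (-0.89 to 0.64). Medium lay wholly above secretome in 9 of the 30 probes in the border zone, 3 in the core and 5 in the normal region. Of all probes 1.10%, 1.45% and 2.69% lay wholly above. No member probe lay wholly below, where 0.734%, 0.423% and 4.75% of all probes did. The 9 border zone probes belong to B2M, PSMB9, SLA-DRA and SLA-DOB. The 5 of the normal region include the dim SLA-DOB probe A_72_P440006.

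In the normal region, with 2 medium and 4 secretome pigs, the differences ran from -0.63 for SLA-DOB (95% interval -1.44 to 0.17) and -0.60 for SLA-1 (-1.49 to 0.30) to -0.13 for TAP1. The smallest group is 2 arrays here, which limits what could be seen. The arm differences were also estimated within each scan series. In the core the median over the 8 genes was -1.01 within series 1 and -0.14 within series 2, where 2 of the 8 estimates were positive. The border zone gave -0.61 and -0.28 and the normal region -0.43 and -0.09. Series 2 holds a single medium pig, and each series holds different pigs, so scan series and single pigs cannot be told apart here. With the series as a covariate the medians were -0.62 in the core and -0.51 in the border zone, and no gene passed.

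**Figure D5:**
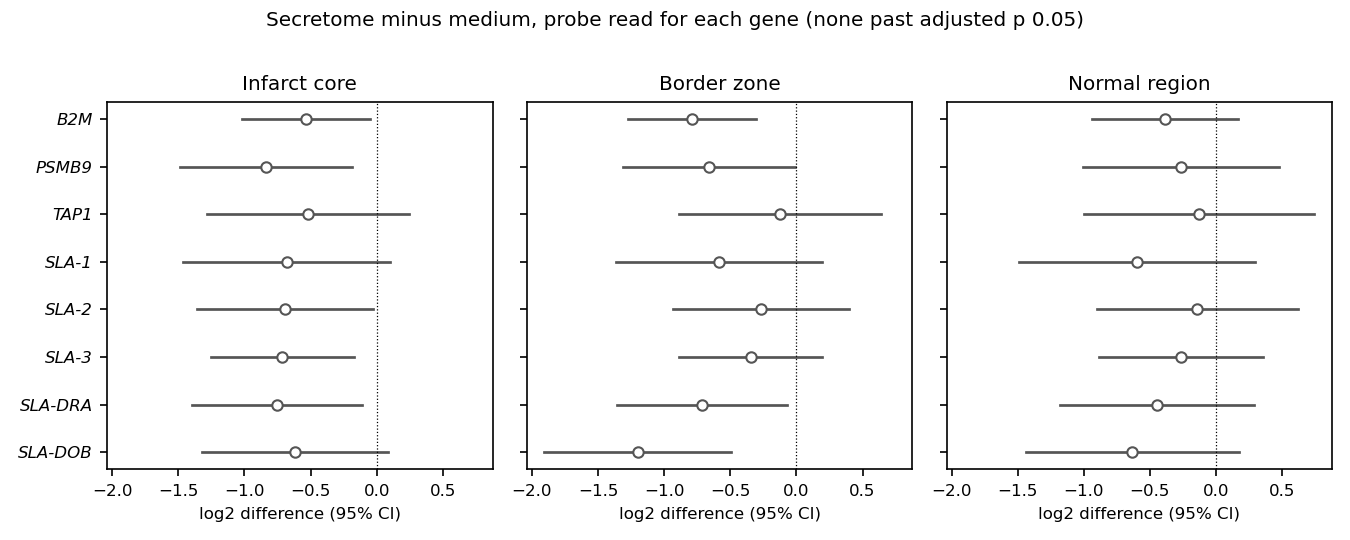
Log2 difference, secretome minus medium, of each of the 8 genes in the 3 regions, with 95% confidence intervals. All 24 points lie below 0, and none passed at a limma adjusted p under 0.05.

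The change from border zone to infarct core was also compared between the arms. None of the 8 genes was called by limma in this arm difference, and 0% of all probes were. At an unadjusted p under 0.05 there were 0 genes and 1 of the 30 probes, where 5.46% of all probes passed. The estimates, secretome minus medium, ran from -0.43 for SLA-2 (95% interval -1.06 to 0.21) to 0.58 for SLA-DOB (-0.09 to 1.25), with a median of -0.14. Without pig 40 the median was 0.10, so its sign depends on that pig.

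No gene of the 5 pathway lists passed between the arms in any region. In the infarct core the medians, secretome minus medium, were -0.63 for class II and its loading, -0.59 for interferon gamma signalling, -0.29 for class I supply and loading, 0.11 for other class I genes and 0.22 for the constitutive proteasome. All 11 class II genes had negative estimates, with 4 at an unadjusted p under 0.05, as did 15 of 16 interferon gamma genes, with 7, where 4.9% of all probes reached that p. CTSH had -0.66 in the core and -1.13 in the border zone, SLA-DQA1 -0.74 and -0.77, SLA-DQB1 -0.60 and -0.48, and SLA-DMB -0.61 and -0.74. SLA-8, in contrast to the members, had positive estimates of 0.40, 0.50 and 0.75 in the core, border zone and normal region.

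Cell type markers shifted between the arms in the same samples, with none called. In the core the medians, secretome minus medium, were -0.82 for macrophage and monocyte markers, -1.23 for T cell markers and 1.89 for cardiomyocyte markers. The summed cardiomyocyte signal in the core was 161 to 3820 with medium and 1745 to 7128 with secretome. The lowest value was that of pig 40. This signal was also split by scan series, at 161 to 2679 in the 5 cores of series 1 and 3416 to 7128 in the 4 of series 2. Within series 1 it was 161 to 2334 with medium and 1745 to 2679 with secretome. Within series 2 the medium pig had 3820 and the secretome pigs 3416 to 7128. The summed T cell signal there was 3.30 to 30.1 with medium and 2.20 to 17.7 with secretome. It was split by scan series: the 5 cores of series 1 had 13.9 to 30.1 and the 4 cores of series 2 had 2.20 to 3.72. Within series 1 the 2 medium pigs had 27.3 and 30.1 and the 3 secretome pigs 13.9 to 17.7, and within series 2 the medium pig had 3.30 and the secretome pigs 2.20 to 3.72. The macrophage sum of the border zone was 74.4 to 102 with medium and 33.6 to 81.9 with secretome. The part of these markers in the arm differences was not tested.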

How the data were processed

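RNA of 24 heart samples from 9 pigs was measured on 1-colour Agilent arrays (100 ng of RNA, RNA integrity number above 6, per the labels). The deposited scanner files hold intensity values, among them a processed signal, from which Feature Extraction (version 10.7.3.1 per the file headers) had removed the background, and other values, the deposited flags of spots that are well above background, saturated or outlying. The authors' table holds log2 values that were normalized across arrays. The submitters' processing notes name limma 3.14.4, and the method is not given in the sources used here. It covers 33348 probes, 26221 of them kept here, its column medians are 7.68 to 7.69, and all 24 columns correlated best with the array of the same name. Its scale is log2 and its direction that of the scanner values, and which scaling centred its columns stays unknown. It served as an alternative.

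Outlier spots were left out (1 to 27 per array), spots of a probe averaged, and log2 of the processed signal taken relative to each array's 75th percentile, which was 210.1 to 617.2. Kept probes passed the background flag on 3 or more arrays. No member probe was saturated. Names came from the array files and from RefSeq accessions: 14269 probes had 1 symbol, 8 several and 29326 none. A mean for each combination of region and arm was estimated with limma 3.58.1, run in R 4.3.3 with statmod 1.5.0 and with pig as a random block (consensus correlation 0.548), on all kept probes, with Benjamini-Hochberg adjustment over them. The fit was tested on simulated data with pig effects and independent noise but no scan series effect. That test therefore does not show how the fit behaves where arrays of a series are alike. The 21 pairs of arrays from the same pig had correlated deviations from the group means (mean r 0.583, 0.120 to 0.778), as had arrays of other pigs of the same scan series (0.439), while arrays of different series had -0.454. Replicates are pigs, and the number of arrays limits the precision.

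The members and gene lists were chosen with earlier results of these data known. All members and their probes are named. Of each pathway list the text names the 4 genes with the smallest p in the infarct core against the normal region, and RFX5, IFNG, CXCL9, CXCL10 and CXCL11 were added after their values were seen. For 4 members the 3 genes most correlated with them are named. Alternatives were other scalings, filters, blocks and covariates, single scan series, each pig left out and other probes.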

Additional observations from a re-analysis of the deposited data

Results flagged for a closer look

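In 1 of 24 groups of 4 or more pigs tested for a value far from the others (8 genes in 3 groups), SLA-DOB stood out: in the infarct core of the secretome pigs, pig 16 had -2.51, and the nearest other pig had -3.02. Its gap was 0.633 of the range of the 6 pigs, where 0.625 is the limit. Chance puts about 1 in 20 such groups past the limit, so a single one among 24 is no more than chance gives.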

How the results depend on the processing

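The pattern that rests on the fewest choices was SLA-DRA, which was higher and called in the infarct core against the normal region in every alternative tried, with differences of 0.73 to 1.52. Against the normal region 4 genes were called, and 7 with quantile normalization, with normexp and quantile, and in the authors' values, whether filtered or read from the brightest probe there. Within scan series 2 alone, 1 was called, and leaving out 1 pig gave 2 (without pig 18) to 4. Against the border zone 4 genes were called, and 7 under the same scalings. The count was 2 with the slide as a covariate or within series 1, 0 within series 2, and 2 (without pig 14 or pig 40) to 5 on leaving out 1 pig. The analysis with pig as replicate block is the one reported. With no replicate block 4 genes were called against the normal region and 1 against the border zone, and with pig as a fixed block 5 (SLA-1 added) and 5 (SLA-1 and SLA-2 added, TAP1 lost). No member was called in the border zone against the normal region or between the arms under any of these.

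Values that changed sign were not called under any setting, and the cause was not tested. In the border zone against the normal region these were PSMB9 at -0.076 in series 2; SLA-1 at -0.069 with slide and -0.030 as the mean of its probes; SLA-2 at 0.0066 with quantile normalization, 0.00079 in the authors' values and 0.073 in series 1; SLA-3 at 0.057 with quantile normalization, 0.036 with normexp, 0.038 and 0.031 in the authors' values, 0.092 in series 1 and 0.00092 from its unshared probe; and TAP1 at 0.078 with slide and 0.066 in series 1. Leaving out 1 pig gave -0.060 to 0.29 for PSMB9 and -0.25 to 0.11 for TAP1.

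Between the arms in the infarct core SLA-DOB was at 0.076 in series 2 and TAP1 at 0.27 both with slide and in series 2. In the border zone SLA-3 was at 0.011 from its unshared probe and TAP1 at 0.21 with slide, and -0.55 to 0.14 on leaving out 1 pig. In the normal region PSMB9 was at 0.096 and SLA-2 at 0.078 with no replicate block, PSMB9 at 0.0050 in series 2, and TAP1 at 0.46 with slide and 0.092 in series 2. Leaving out 1 pig gave -0.49 to 0.23 for SLA-2 and -0.30 to 0.042 for TAP1.

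For the arm difference of the core against border zone change, B2M was at -0.074 with quantile normalization, -0.056 with normexp and -0.070 in the authors' values in both readings. With slide SLA-1 was at 0.027 and TAP1 at 0.065, and in series 2 PSMB9 was at 0.085, SLA-1 at 0.21, SLA-2 at 0.031, SLA-DRA at 0.26 and TAP1 at 0.43. Leaving out 1 pig gave -0.31 to 0.020 for PSMB9, -0.21 to 0.096 for SLA-1, -0.16 to 0.18 for SLA-DRA and -0.77 to 0.26 for TAP1. Reading SLA-3 from an unshared probe, counting probes in place of genes and the authors' values without a further filter were chosen after seeing the data. SLA-DOB lies near the background, which limits its precision.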

Other observations

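The array holds 3 further probes whose description in the array files is beta-2-microglobulin but whose name and accessions do not lead to B2M. In the infarct core against the normal region they had log2 differences of 0.55, 0.45 and 0.52, each past limma's adjusted threshold, beside 0.46 to 0.63 for the 5 probes named B2M. Against the border zone they had 0.22, 0.18 and 0.20, none past the threshold. Secretome minus medium in the border zone was -0.88, -0.77 and -0.84 for them (limma adjusted p = 0.662 for each), beside -0.83 to -0.68 for the named probes.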
